A study of Mus musculus with 12 samples.

Results

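Endothelial cells of the mouse thymus that were sorted as positive for a Kit ligand reporter were compared with endothelial cells of the same strain sorted as negative. The comparison took 6 of the 12 libraries of the series, 3 labelled KitL-tomato+ vascular endothelial cells (VEC) and 3 labelled KitL-tomato- VEC, and was read across the 23306 gene symbols of the deposited count table. Both groups came from C57 BL6 mice of a KitL-tomato reporter strain, so the tomato- cells are cells of the reporter strain too, not of mice without the reporter. Cells of both groups were sorted from thymic stroma as Lin- Dapi- EpCAM- CD31+ cells, and the groups differed in the td-tomato gate. The other 6 libraries of the series, from thymic epithelium, entered no value below except where stated. The labels used here give no age, sex, number of mice or pooling, and do not say how the reporter allele was built. Whether the replicates are separate mice is not stated, and the p-values given here therefore cover the spread among these 6 libraries alone, which may be technical. Messenger RNA was copied with an ultra-low-input cDNA kit, a method for small numbers of cells, and sequenced.

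Kit ligand, made from Kitl, binds the receptor Kit and is known to sustain blood-forming cells and the earliest thymocytes. Endothelium is not uniform along the vessel tree. Arterial cells are known for Notch signalling, ephrin-B2 and gap junction connexins, capillary cells for exchange of gases, ions and fatty acids, and post-capillary venules for von Willebrand factor, P-selectin and the other molecules that slow passing leukocytes. In the thymus, progenitors are known to enter from the blood through venules near the border of cortex and medulla, and mature T cells leave through vessels of the same region.

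Libraries held 8448280 to 10786569 counts in tomato+ VEC and 9092775 to 10050186 in tomato- VEC, with 13406 to 14346 genes counted in a library. Replicates of a group differed by more than counting noise, with a chi-square per degree of freedom of 83.2 to 132. Between 30 and 115 genes per library had no count where the other replicates of the group each had a library-scaled level (CPM, counts per 1000000) of at least 5. The common dispersion of the fit was 0.694, a biological coefficient of variation of 0.833, with 4 residual degrees of freedom. In a principal component analysis of the 6 libraries, the first component held 32.6% of the variance. It placed the tomato+ libraries at -99.6, -106 and -22.4 and the tomato- libraries at 89.9, 78.5 and 59.8, so tomato+ replicate 3 lay nearest to the other group. The second component held 23.5% and set tomato+ replicates 1 and 2 apart at 121 and -118. Tomato+ replicate 3 was also the tomato+ library nearest to the tomato- libraries in 27 of the 53 genes called higher and in 26 of the 59 called lower. Counts of calls without it are given below.

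General endothelial markers had overlapping sums. The summed level of 15 pan-endothelial genes was 11636 to 12820 CPM in tomato+ VEC and 11493 to 14719 CPM in tomato- VEC (exact permutation test, two-sided, p = 0.7). Here CPM is the count scaled to the library's effective size, and with 3 libraries against 3 the smallest p that this exact test allows is 0.1. Myeloid and dendritic markers summed to 17.5 to 53.4 CPM in tomato+ VEC and 78.8 to 164 CPM in tomato- VEC (exact p = 0.1), and these ranges did not overlap. Of the 18 myeloid genes, 7 had no count in tomato+ VEC and 8 had none in tomato- VEC. Fgl2, itself among the genes called lower, carried a large part of the tomato- sums, and without Fgl2 the ranges of the groups overlapped. Ptprc, which encodes the leukocyte surface protein CD45, had 3 counts over the tomato+ libraries and 0 over the tomato- libraries, which allows up to 3 counts. Ranges overlapped for pericyte and smooth muscle markers (65.2 to 235 CPM in tomato+ VEC, 177 to 467 CPM in tomato- VEC, exact p = 0.2), for fibroblast markers (11.85 to 24.6 CPM and 12.6 to 69.9 CPM in the same order, exact p = 0.4) and for T-cell markers (122 to 199 CPM and 67.8 to 162 CPM, exact p = 0.4). They also overlapped for thymic epithelial markers (1.71 to 2.19 CPM in tomato+ VEC, 1.52 to 12.9 CPM in tomato- VEC, exact p = 0.4), for B-cell markers (0.192 to 8.80 CPM and 0 to 0.483 CPM, exact p = 0.6) and for platelet and erythroid markers (3.09 to 18.1 CPM and 3.19 to 195 CPM, exact p = 0.6). In these bulk libraries, fewer cells of a type and less RNA per cell cannot be told apart.

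Kitl itself had 748, 1445 and 721 CPM in tomato+ VEC, against 358, 429 and 426 CPM in tomato- VEC. The groups did not overlap, and the highest value was that of tomato+ replicate 2. The log2 fold change was 1.26 (SE 0.30), with an edgeR adjusted p of 0.112, which did not pass the threshold of 0.05. SE here is the absolute log2 fold change divided by the square root of edgeR's F statistic, as edgeR itself gives none. Pecam1, the gene of the CD31 protein used in the sort, had 2443, 2222 and 3111 CPM in tomato+ VEC, against 4962, 3336 and 3334 CPM in tomato- VEC. These values did not overlap either, with a log2 fold change of -0.58 (SE 0.22) and an edgeR adjusted p of 0.356. Epcam, whose protein was selected against, had 0 counts over the tomato+ libraries, which allows up to 3, and 3 counts over the tomato- libraries.

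In all, 112 of the 11039 genes that passed the low-count filter differed between tomato+ and tomato- VEC by edgeR's quasi-likelihood test at an adjusted p under 0.05, which is 1.01% of the genes tested. Of these, 53 (0.48%) were higher and 59 (0.534%) were lower in tomato+ VEC. These shares are the background for each count of called list members below. The genes called lower changed by more. The median absolute log2 fold change was 2.40 among those higher, with 24 of 53 under 2, and 5.61 among those lower, with 7 of 59 under 2. Among the 59 were 7 symbols of the Ccl21 gene cluster that shared 2 count profiles, so the lower genes held 54 distinct profiles. Because the filter asked for 3 libraries above about 1.01 CPM, some genes entered through a single group, where the other had no library above that level: 9 of those called higher and 18 of those called lower. The sign of such genes was fixed by the filter. All 112 called genes had libraries that did not overlap between the groups, as had 19.1% of the genes tested (9.26% higher and 9.85% lower). The median log2 fold change over the tested genes was 0.03. Without tomato+ replicate 3 the test called 84 genes, 36 higher and 48 lower, of which 62 were among the 112. Over all 6 fits that each left out a library, 30 to 84 genes were called, the fewest without tomato- replicate 2. Cd36, Cxcl12, Ly6c1, Ly6c2, Nepn, Slc26a10 and Slc6a6 passed in each of these fits among the higher genes. Among the lower genes, 16 symbols did so: Angpt2, Apoe, Ccl21a, Cd82, Cpe, Ctla2a, Ctsh, Ctsl, Dclk1, Dsg2, Enpp2, F8, Gm1987, Ltbp2, Spint2 and Vwf. Nepn, Slc26a10, Cpe and Dclk1 were among the genes that entered through a single group. No fit of the 6 called 12 of the higher and 14 of the lower genes.

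**Figure D1:**
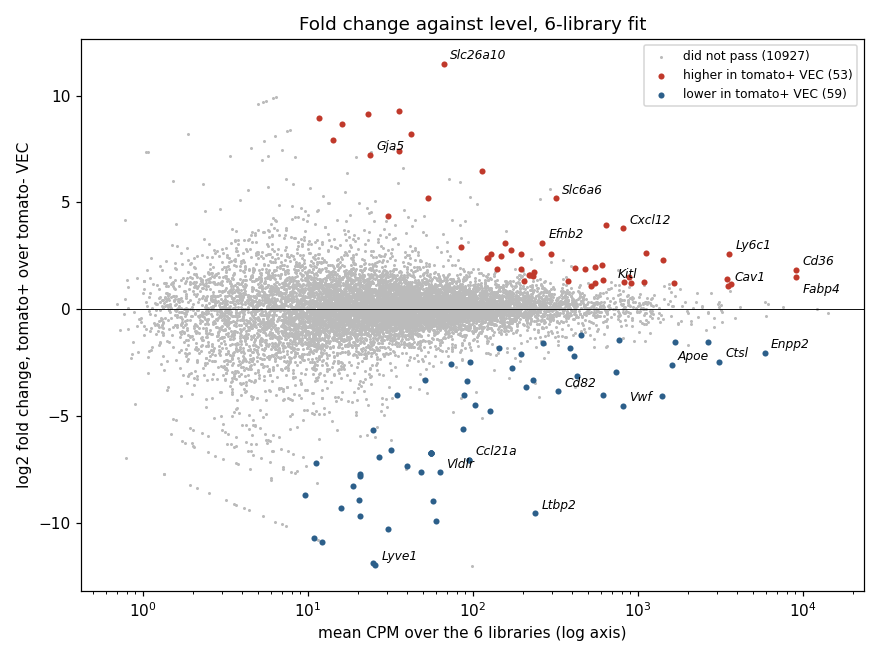
Each point is a tested gene, with its mean CPM over the 6 libraries on a log axis across and its log2 fold change, tomato+ over tomato- VEC, up the page. Red points are the 53 genes called higher, blue points the 59 called lower and grey points the rest. Called genes of low mean level have the largest fold changes. Of highly expressed called genes, Cd36, Fabp4 and Cav1 lie between 1.09 and 1.85, Ly6c1 at 2.59, Enpp2 at -2.04 and Ctsl at -2.47.

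Several arterial and capillary genes rose in tomato+ VEC. Of 22 arterial genes, 20 were tested and 5 rose: Efnb2, Hey1, Gja5, Nrp1 and Cxcl12. All 20 had a positive log2 fold change, but Hey1 and Gja5 passed the low-count filter through the tomato+ libraries alone, so their sign was fixed by the filter. The list's median log2 fold change was 1.76, against 0.03 over all tested genes, and was 1.15 with limma-trend on log2(RPKM + 1). This list, like the others, was chosen with earlier results of these data known, so its median and signs are a description and no test. Of the 20, 12 were higher without overlap, against 9.26% of all tested genes, and the 5 calls stand against 0.48%. Of 17 capillary genes, all were tested and 5 rose: Rgcc, Cd36, Gpihbp1, Lpl and Cxcl12, which stands in both lists. Their list had a median of 0.80, with 12 members above 0 and 5 below.

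Cxcl12, the chemokine that attracts progenitors through Cxcr4, had 1886, 1320 and 1344 CPM in tomato+ VEC, against 117, 111 and 102 CPM in tomato- VEC. The lowest tomato+ library was far above the highest tomato- library. With a log2 fold change of 3.78 (SE 0.22) and an edgeR adjusted p of 0.000688, it shared the smallest adjusted p of the comparison with the taurine transporter gene Slc6a6. Efnb2, which encodes the arterial membrane ligand ephrin-B2, had 572, 374 and 467 CPM in tomato+ VEC, against 33.3, 42.8 and 88.8 CPM in tomato- VEC (log2 fold change 3.10, SE 0.41, edgeR adjusted p = 0.0153). Hey1, a transcriptional target of Notch, was nearly silent in tomato- VEC. It had 15.3, 130 and 67.8 CPM in tomato+ VEC, against 0, 0.290 and 0 CPM in tomato- VEC. Those tomato- values rest on 3 counts, and the ratio of summed counts was 658 (95% counting interval 225 to 3194, edgeR adjusted p = 0.0303). Gja5, the gene of the arterial gap junction protein connexin 40, had 40.1, 62.2 and 39.9 CPM in tomato+ VEC, against 0.710, 0.0965 and 0.106 CPM in tomato- VEC (log2 fold change 7.23, SE 1.11, edgeR adjusted p = 0.0272). Nrp1, a co-receptor for vascular endothelial growth factor, averaged 1281 ± 133 CPM in tomato+ VEC and 544 ± 70.3 CPM in tomato- VEC (SD, n = 3 each; log2 fold change 1.24, SE 0.18, edgeR adjusted p = 0.0237).

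Other arterial genes differed in the same direction without passing. The transcription factor gene Sox17 had 82.8, 113 and 45.7 CPM in tomato+ VEC, against 15.9, 23.3 and 10.5 CPM in tomato- VEC, and an edgeR adjusted p of 0.125. Jag1, a Notch ligand, averaged 464 ± 40.6 CPM in tomato+ VEC and 230 ± 54.8 CPM in tomato- VEC (edgeR adjusted p = 0.109). Dll4, the Notch ligand that is known to instruct T-cell fate when made by thymic epithelium, averaged 123 ± 35.6 CPM in tomato+ VEC and 93.8 ± 37.6 CPM in tomato- VEC, and its libraries overlapped (edgeR adjusted p = 0.825). Among 18 genes of the Notch pathway, 15 were tested and Hey1 was the single call.

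Among capillary genes, Rgcc, a regulator of the cell cycle that is common in capillary endothelium, had 1117, 1258 and 1214 CPM in tomato+ VEC, against 21.9, 78.5 and 133 CPM in tomato- VEC (log2 fold change 3.94, SE 0.58, edgeR adjusted p = 0.0234). Gpihbp1, which carries lipoprotein lipase to the capillary lumen, had 2203, 1925 and 2960 CPM in tomato+ VEC, against 250, 380 and 787 CPM in tomato- VEC (log2 fold change 2.32, SE 0.41, edgeR adjusted p = 0.0466). No library of either gene overlapped with the other group. Not every capillary gene followed them. Car4, the capillary carbonic anhydrase, had 558, 307 and 1162 CPM in tomato+ VEC, against 693, 946 and 868 CPM in tomato- VEC. Plvap, which forms the diaphragms of fenestrae and caveolae, averaged 301 ± 54.1 CPM in tomato+ VEC and 779 ± 324 CPM in tomato- VEC without passing (edgeR adjusted p = 0.127).

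Cxcl12 and Cd36 passed in all 6 fits that left out a library, and the other arterial and capillary calls did not. Efnb2 was lost without tomato+ replicate 1, tomato- replicate 1 or tomato- replicate 2 (edgeR adjusted p 0.00675 to 0.0979 over the 6 fits). Hey1 passed only without tomato+ replicate 1 (0.0339 to 0.124), and Gja5 only without tomato- replicate 1 (0.0342 to 0.110). Nrp1 passed only without tomato+ replicate 3 or tomato- replicate 3 (0.0434 to 0.135), Rgcc only without tomato- replicate 1 or 3 (0.0148 to 0.139), and Gpihbp1 only without tomato- replicate 3 (0.0126 to 0.206). With all 12 libraries in the fit, Gja5, Nrp1, Gpihbp1 and Cd36 did not pass, with limma voom Hey1 and Gja5 did not, and with robust dispersions Gpihbp1 did not. Over the 6 fits 1 to 4 arterial and 2 to 5 capillary genes were called, and without tomato+ replicate 3 there were 3 of each.

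**Figure D2:**
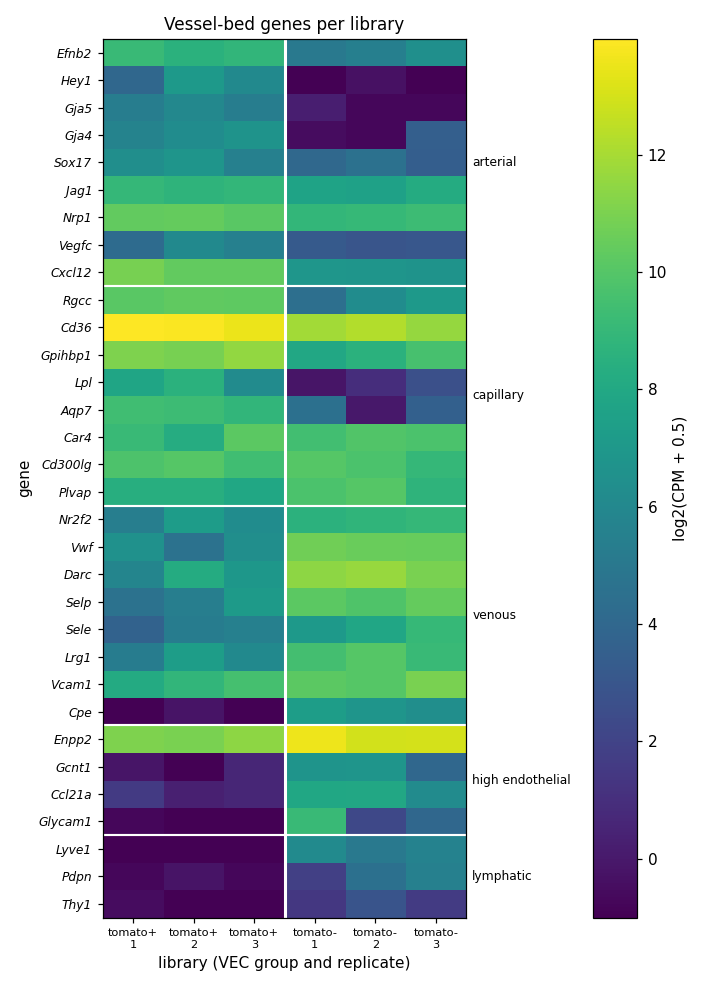
Rows are genes of the arterial, capillary, venous, high endothelial and lymphatic lists, columns are the 3 tomato+ libraries on the left and the 3 tomato- libraries on the right, and colour is log2(CPM + 0.5). The arterial genes drawn and several capillary genes are brighter in the tomato+ columns, Car4 and Cd300lg overlap between the groups, Plvap is brighter in the tomato- columns, and the venous, high endothelial and lymphatic genes drawn here are brighter in the tomato- columns; members of those lists with a positive log2 fold change, such as Podxl and Flt4, are not drawn.

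Several venous and post-capillary genes fell in tomato+ VEC. All 16 were tested, Cpe through the tomato- libraries alone, and 15 had a negative log2 fold change. Of the 16, 11 had libraries that were lower without overlap, against 9.85% of all tested genes. The 5 that fell, against 0.534% of all tested genes, were Vwf, Darc, Selp, Lrg1 and Cpe. The list's median log2 fold change was -2.28, for members that were also chosen with earlier results of these data known. Its summed level was 3415, 4489 and 3603 CPM in tomato+ VEC, against 12768, 12545 and 11859 CPM in tomato- VEC.

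Vwf, the gene of von Willebrand factor, had 93.1, 24.6 and 85.2 CPM in tomato+ VEC, against 1670, 1530 and 1458 CPM in tomato- VEC. The tomato- libraries were close to each other, and every tomato+ library was far below them (log2 fold change -4.52, SE 0.49, edgeR adjusted p = 0.00684). Selp encodes P-selectin, on which leukocytes roll, and had 24.9, 42.3 and 145 CPM in tomato+ VEC, against 1156, 907 and 1410 CPM in tomato- VEC (log2 fold change -4.03, SE 0.64, edgeR adjusted p = 0.0309). Darc, the atypical chemokine receptor of venules that is now named Ackr1, had 56.9, 297 and 122 CPM in tomato+ VEC, against 2808, 3183 and 1963 CPM in tomato- VEC (log2 fold change -4.06, SE 0.58, edgeR adjusted p = 0.0216). All 3 tomato+ libraries kept a low but measurable level of each of these genes. Lrg1, a secreted glycoprotein of venules, averaged 87.9 ± 62.4 CPM in tomato+ VEC and 771 ± 247 CPM in tomato- VEC (log2 fold change -3.13, SE 0.53, edgeR adjusted p = 0.0374). Cpe, a carboxypeptidase that trims peptide hormones, had 0, 0.367 and 0 CPM in tomato+ VEC, against 161, 114 and 83.2 CPM in tomato- VEC. With 3 counts over the tomato+ libraries, the ratio of tomato- to tomato+ counts was 1144 (95% counting interval 391 to 5548, edgeR adjusted p = 0.00684).

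The endothelial selectin gene Sele, the integrin ligand gene Vcam1 and the venous transcription factor gene Nr2f2 did not pass, and none of them overlapped between the groups. Sele averaged 32.3 ± 17.4 CPM in tomato+ VEC and 299 ± 201 CPM in tomato- VEC (edgeR adjusted p = 0.0707). Vcam1 had 286, 456 and 764 CPM in tomato+ VEC, against 1172, 1027 and 1982 CPM in tomato- VEC (edgeR adjusted p = 0.151). Nr2f2 averaged 92.3 ± 58.8 CPM in tomato+ VEC and 450 ± 55.7 CPM in tomato- VEC (edgeR adjusted p = 0.0707). Icam1, which binds leukocyte integrins, was at 399 ± 61.6 CPM in tomato+ VEC and 510 ± 14.8 CPM in tomato- VEC. Vwf and Cpe passed in all 6 fits that left out a library. Darc was lost without tomato+ replicate 3, tomato- replicate 1 or tomato- replicate 2 (edgeR adjusted p 0.0150 to 0.0936 over the 6 fits), Selp passed only without tomato+ replicate 3 (0.00399 to 0.123), and Lrg1 only without tomato+ replicate 2 (0.0346 to 0.154). With all 12 libraries in the fit, Vwf, Selp and Lrg1 did not pass. Over the 6 fits 2 to 5 venous genes were called.

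A few high endothelial and lymphatic genes fell in tomato+ VEC. Of 15 genes of high endothelial venules and selectin ligands, 12 were tested. Of these, 3 fell: Enpp2, Gcnt1 and Ccl21a, the last of which is also in the lymphatic list. Over all 11039 tested genes, 0.534% were called lower and 5355 had a negative log2 fold change. In the high endothelial list 11 genes had a negative log2 fold change. Among them were Gcnt1 and Glycam1, which passed the low-count filter through the tomato- libraries alone and so could only be lower. The list's median was -1.22, and -2.05 with no low-count filter. Enpp2, the secreted enzyme autotaxin that makes lysophosphatidic acid, was abundant in both groups. It had 2121, 1976 and 2790 CPM in tomato+ VEC, against 12208, 7868 and 8170 CPM in tomato- VEC (log2 fold change -2.04, SE 0.23, edgeR adjusted p = 0.00684). Gcnt1, a transferase that builds core 2 O-glycans of selectin ligands, had 0.384, 0 and 0.996 CPM in tomato+ VEC, against 109, 112 and 15.4 CPM in tomato- VEC, and tomato- replicate 3 was lowest of its group (edgeR adjusted p = 0.0495). The lymphoid chemokine gene Ccl21a had 2.40, 0.733 and 0.996 CPM in tomato+ VEC, against 240, 251 and 73.3 CPM in tomato- VEC (log2 fold change -7.07, SE 0.75, edgeR adjusted p = 0.00684). Its counts equalled those of Gm1987, and the counts of Ccl21b, Ccl21c, Gm10591, Gm13304 and Gm21541 equalled each other, so the near-identical copies of this cluster could not be told apart. Glycam1, a mucin-like ligand of L-selectin, rested on a single library, with 0.0961, 0 and 0 CPM in tomato+ VEC and 572, 4.15 and 15.4 CPM in tomato- VEC (edgeR adjusted p = 0.0812). Chst4, the sulfotransferase of high endothelial venules, was not tested, and 67.2 CPM in tomato- replicate 1 stood beside 0.0965 and 0.212 CPM in tomato- replicates 2 and 3. Podxl went the other way without passing, at 372 ± 222 CPM in tomato+ VEC and 74.1 ± 23.9 CPM in tomato- VEC (edgeR adjusted p = 0.0770).

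Of 14 lymphatic genes, 10 were tested, 4 of them through the tomato- libraries alone. The sign of those 4, Lyve1 among them, was fixed by the filter. Lyve1 and Ccl21a fell, where 0.534% of all tested genes were called lower. The list's median log2 fold change was -4.70, but -1.85 over the 6 genes left by a filter of at least 5 CPM in 3 libraries and -1.56 with limma-trend on log2(RPKM + 1), a scale that understates changes of low genes. It is -4.70 also with Lyve1 at its bound, which lies below the median either way. Lyve1, a hyaluronan receptor of lymphatic endothelium and some macrophages, had no count in tomato+ VEC and 71.2, 33.1 and 49.5 CPM in tomato- VEC, so it was at least 486-fold lower, taking 3 counts over the tomato+ libraries as the floor (edgeR adjusted p = 0.0168). Pdpn, which encodes podoplanin, had 0.0961, 0.367 and 0.0996 CPM in tomato+ VEC, against 3.14, 22.5 and 45.7 CPM in tomato- VEC, and did not pass (edgeR adjusted p = 0.0889). Prox1, the transcription factor that specifies lymphatic endothelium, was below the filter. It had 0.192, 0 and 0 CPM in tomato+ VEC and 3.95, 0 and 0 CPM in tomato- VEC. Flt4, the receptor for the lymphatic growth factor Vegfc, averaged 50.5 ± 6.07 CPM in tomato+ VEC and 35.6 ± 29.0 CPM in tomato- VEC, with overlapping libraries. Summed myeloid markers were higher in tomato- VEC as well (17.5 to 53.4 CPM in tomato+ VEC and 78.8 to 164 CPM in tomato- VEC), and their part in the values of Lyve1, which macrophages also express, was not tested. A large part of those tomato- sums came from Fgl2, itself a called gene, and without Fgl2 the sums of the groups overlapped. Enpp2 and Ccl21a passed in every fit that left out a library. Ccl21b and its copies were lost without tomato- replicate 2 (edgeR adjusted p = 0.0516). Gcnt1 passed only without tomato- replicate 3 (edgeR adjusted p 0.0475 to 0.206 over the 6 fits), and Lyve1 was lost without any of the 3 tomato- replicates (0.0339 to 0.102). With all 12 libraries in the fit Enpp2 did not pass, and with limma voom the Ccl21 genes and Gcnt1 did not. Gcnt1 also failed with robust dispersions and with limma-trend on log2(RPKM + 1). With the replicate number as a block, Lyve1 (edgeR adjusted p = 0.0949) and Gcnt1 did not pass.

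**Figure D3:**
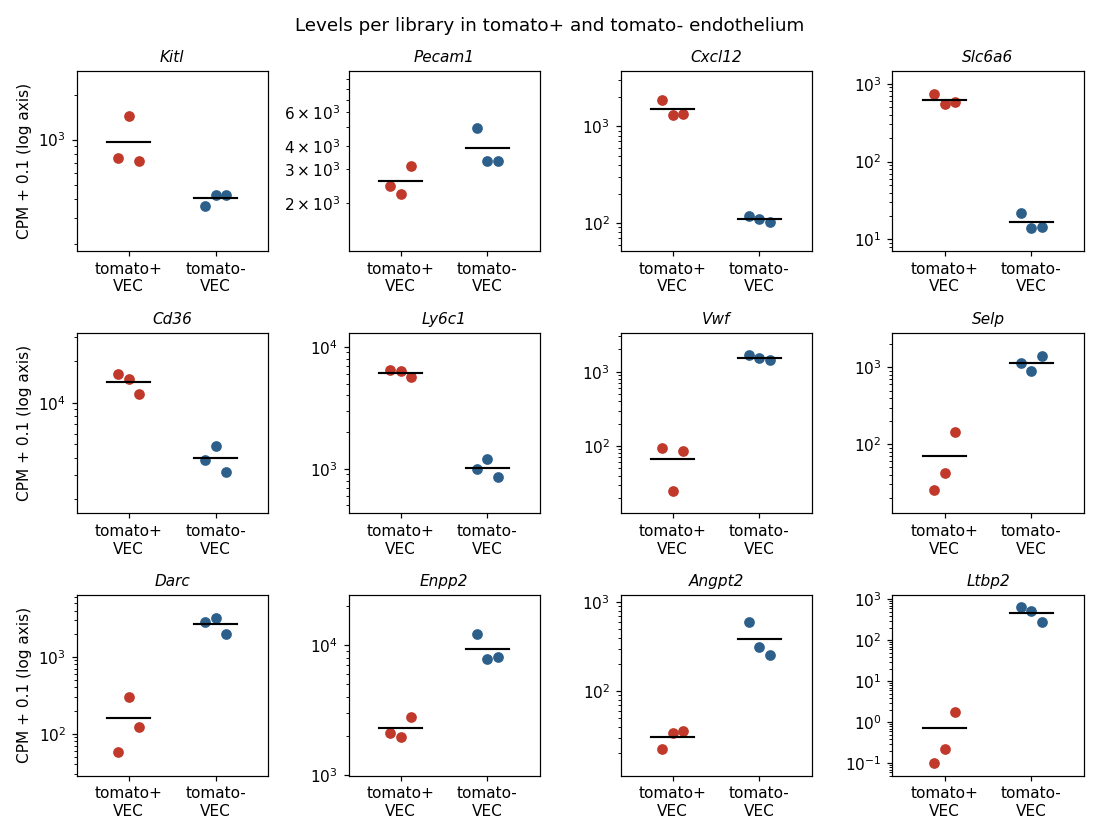
Each panel shows CPM + 0.1 on a log axis for a gene, with the 3 tomato+ libraries in red on the left, the 3 tomato- libraries in blue on the right, and a line at each group's mean. Kitl, Cxcl12, Slc6a6, Cd36 and Ly6c1 lie higher in tomato+ VEC and Pecam1, Vwf, Selp, Darc, Enpp2, Angpt2 and Ltbp2 lower, without overlap in any panel; Kitl and Pecam1 did not pass the test.

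Promoters of genes from both sides of the contrast were read from RefSeq to show the sequence at the genes that the results turn on, from 250 bases before to 50 after the transcript start. They are given on build GRCm38.p6, while the counts were made on mm9. Capitals mark matches on either strand to any of 4 short motifs: TGGGAA (the core of the Notch effector RBPJ), AGGTCA (a nuclear receptor half-site), AACAAT (SOX factors) and CACGTG (an E-box). Kitl lies at chr10:100015571-100015870 on the plus strand, Cxcl12 at chr6:117168285-117168584 on the plus strand, Efnb2 at chr8:8661193-8661492 on the minus strand, Selp at chr1:164115014-164115313 on the plus strand and Darc, listed as Ackr1, at chr1:173333454-173333753 on the minus strand.
Kitl: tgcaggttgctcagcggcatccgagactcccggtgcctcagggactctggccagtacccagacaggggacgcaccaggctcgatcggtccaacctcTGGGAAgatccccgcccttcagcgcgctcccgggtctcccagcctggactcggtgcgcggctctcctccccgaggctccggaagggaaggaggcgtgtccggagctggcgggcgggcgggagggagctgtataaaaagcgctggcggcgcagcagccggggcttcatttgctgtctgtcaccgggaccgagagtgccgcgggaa
Cxcl12: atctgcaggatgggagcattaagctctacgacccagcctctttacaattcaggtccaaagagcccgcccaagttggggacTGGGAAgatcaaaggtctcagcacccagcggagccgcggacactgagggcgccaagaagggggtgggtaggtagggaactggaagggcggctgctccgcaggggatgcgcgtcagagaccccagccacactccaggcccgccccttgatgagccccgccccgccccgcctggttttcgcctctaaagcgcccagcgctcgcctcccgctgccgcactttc
Efnb2: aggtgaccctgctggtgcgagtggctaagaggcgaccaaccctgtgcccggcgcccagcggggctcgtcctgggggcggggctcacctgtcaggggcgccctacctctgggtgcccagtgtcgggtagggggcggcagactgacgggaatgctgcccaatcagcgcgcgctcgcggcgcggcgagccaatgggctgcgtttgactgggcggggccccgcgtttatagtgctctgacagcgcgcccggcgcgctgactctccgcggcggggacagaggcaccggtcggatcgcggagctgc
Selp: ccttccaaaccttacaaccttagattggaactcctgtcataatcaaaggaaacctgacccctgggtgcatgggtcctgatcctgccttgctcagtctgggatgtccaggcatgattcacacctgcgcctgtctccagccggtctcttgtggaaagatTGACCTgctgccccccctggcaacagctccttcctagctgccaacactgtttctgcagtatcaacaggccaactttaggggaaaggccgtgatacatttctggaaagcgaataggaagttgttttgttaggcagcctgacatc
Darc: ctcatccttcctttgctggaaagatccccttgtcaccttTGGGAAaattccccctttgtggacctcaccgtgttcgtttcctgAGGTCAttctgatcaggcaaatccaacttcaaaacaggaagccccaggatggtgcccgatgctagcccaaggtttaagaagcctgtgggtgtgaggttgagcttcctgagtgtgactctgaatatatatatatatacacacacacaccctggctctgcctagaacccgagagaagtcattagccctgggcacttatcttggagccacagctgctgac
Kitl and Cxcl12 each held an RBPJ match, Efnb2 held no match in this window, Selp held a nuclear receptor half-site on the reverse strand, and Darc held an RBPJ match and a half-site. Over the 53 genes called higher, 40 had a promoter in the table and 32.5% of those held TGGGAA. The share was 32.6% of 43 promoters of genes called lower, 23.2% of 8753 promoters of tested genes and 25.5% of 27025 promoters in all. AGGTCA stood in 20% of the promoters of genes called higher, 20.9% of those called lower, 12% of tested genes and 16% of all. AACAAT stood in 5% of the higher, 11.6% of the lower, 5.61% of the tested and 10.9% of all promoters, and CACGTG in 15%, 6.98%, 10.2% and 7.24% of the same sets. These matches describe the letters only.

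Genes of fatty acid transport were among the most highly expressed genes of the contrast, and several rose in tomato+ VEC. Of 22 listed, 20 were tested, 5 rose (Cd36, Fabp4, Lpl, Gpihbp1 and Pparg) and 1 fell (Vldlr). The list's median log2 fold change was 0.52, against 0.03 over all tested genes, of which 0.48% were called higher and 0.534% lower. Its members were also chosen with earlier results of these data known. Per transcript length, Fabp4 had the highest mean level of any gene in tomato+ VEC, at 20267 RPKM, against 7638 RPKM in tomato- VEC. RPKM is the number of reads per kilobase of gene and per 1000000 reads, as the authors deposited it. Cd36 reached 3874 RPKM in tomato+ VEC and 1137 RPKM in tomato- VEC.

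Cd36, which takes up long-chain fatty acids and scavenges oxidised lipoproteins, had 16094, 15005 and 11636 CPM in tomato+ VEC, against 3867, 4860 and 3160 CPM in tomato- VEC (log2 fold change 1.85, SE 0.20, edgeR adjusted p = 0.00684). Fabp4, the fatty acid carrier of the cytosol, had 13995, 14987 and 11199 CPM in tomato+ VEC, against 4025, 6029 and 4285 CPM in tomato- VEC (log2 fold change 1.49, SE 0.20, edgeR adjusted p = 0.0159). For both, tomato+ replicate 3 was lowest of its group and still well above every tomato- library. Lpl, the lipase that frees fatty acids from lipoproteins, had 223, 371 and 74.3 CPM in tomato+ VEC, against 0.406, 1.45 and 5.74 CPM in tomato- VEC (log2 fold change 6.46, SE 1.04, edgeR adjusted p = 0.0316). Pparg, the nuclear receptor that is known to drive Fabp4 and Cd36, averaged 221 ± 69.1 CPM in tomato+ VEC and 36.9 ± 9.77 CPM in tomato- VEC (log2 fold change 2.58, SE 0.37, edgeR adjusted p = 0.0216). Aqp7, a glycerol channel of capillaries, had 661, 608 and 457 CPM in tomato+ VEC, against 22.5, 0.483 and 11.4 CPM in tomato- VEC. It did not overlap, yet missed the threshold (edgeR adjusted p = 0.0540). Meox2, part of a pair of transcription factors known for fatty acid uptake in heart endothelium, averaged 341 ± 104 CPM in tomato+ VEC and 421 ± 145 CPM in tomato- VEC, with overlapping libraries.

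Vldlr and Apoe fell. Vldlr, the receptor for very low density lipoprotein, had 0.192, 0.367 and 1.29 CPM in tomato+ VEC, against 65.4, 178 and 134 CPM in tomato- VEC (log2 fold change -7.63, SE 0.87, edgeR adjusted p = 0.00687). Apoe, the lipid-carrying apolipoprotein E, had 403, 459 and 481 CPM in tomato+ VEC, against 2911, 3392 and 1932 CPM in tomato- VEC (log2 fold change -2.62, SE 0.24, edgeR adjusted p = 0.00499). Macrophages are known to make much Apoe, and summed myeloid markers of at most 164 CPM in tomato- VEC were also above those of tomato+ VEC. Their part in the Apoe difference was not tested. Fgl2, itself called lower, carried a large part of the tomato- sums, and without Fgl2 the sums of the groups overlapped. Fabp4 was lost without tomato+ replicate 1 or 2 or tomato- replicate 1 or 3 (edgeR adjusted p 0.0332 to 0.0741 over the 6 fits that left out a library). Lpl passed only without tomato+ replicate 3 or tomato- replicate 3 (0.0257 to 0.174), Pparg only without tomato+ replicate 2 (0.0352 to 0.103), and Vldlr was lost only without tomato- replicate 2 (0.0146 to 0.0516). Cd36, Fabp4 and Pparg did not pass with all 12 libraries in the fit, and Lpl and Vldlr did not with limma voom.

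Caveolae, the membrane pits that are dense in capillary endothelium, had 2 of 13 tested genes higher, Cav1 and Cav2, of 17 listed. Over all tested genes 0.48% were called higher, and the list's median log2 fold change was 0.06. Cav1 had 4984, 4576 and 4859 CPM in tomato+ VEC, against 2145, 2110 and 2517 CPM in tomato- VEC (log2 fold change 1.09, SE 0.15, edgeR adjusted p = 0.0159). Its partner Cav2 averaged 2304 ± 234 CPM in tomato+ VEC and 980 ± 34.9 CPM in tomato- VEC (log2 fold change 1.23, SE 0.16, edgeR adjusted p = 0.0135). These were small differences with close replicates. Sdpr, now named Cavin2, a coat protein of caveolae, averaged 1183 ± 250 CPM in tomato+ VEC and 583 ± 55.1 CPM in tomato- VEC without passing (edgeR adjusted p = 0.0721). Of 27 genes of barrier junctions and efflux, 14 were tested and Cldn5 alone rose. Cldn5, the main claudin of endothelial tight junctions, had 245, 301 and 213 CPM in tomato+ VEC, against 51.8, 40.7 and 41.0 CPM in tomato- VEC (log2 fold change 2.50, SE 0.28, edgeR adjusted p = 0.00687). Cdh5, the cadherin of endothelial adherens junctions, averaged 1221 ± 337 CPM in tomato+ VEC and 972 ± 96.3 CPM in tomato- VEC with overlapping libraries. Mfsd2a, the lipid transporter of the blood-brain barrier, had 1 count over the tomato+ libraries and none over the tomato- libraries. Without tomato+ replicate 1 or 2 or tomato- replicate 1 or 2, Cav1 did not pass (edgeR adjusted p 0.0257 to 0.0979 over the 6 fits), nor Cav2 without tomato+ replicate 2 or tomato- replicate 1 or 2 (0.0368 to 0.0884), nor Cldn5 without tomato- replicate 2 (0.0242 to 0.0516). All 3 failed with all 12 libraries in the fit.

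Of 372 solute carrier genes, 158 were tested and 2 rose, Slc6a6 and Slc26a10, with a family median log2 fold change of -0.10. Slc6a6, the taurine transporter, had 732, 541 and 577 CPM in tomato+ VEC, against 21.7, 14.0 and 14.4 CPM in tomato- VEC (log2 fold change 5.20, SE 0.30, edgeR adjusted p = 0.000688). Slc26a10, an anion exchanger family member, had 210, 114 and 77.4 CPM in tomato+ VEC, against 0, 0.0965 and 0 CPM in tomato- VEC. With a single count in tomato- VEC, its ratio was 4025 (95% counting interval 722 to 159038, edgeR adjusted p = 0.00290). Both calls held in all 6 fits that left out a library, though Slc26a10 did not pass with limma voom. Slc26a10 passed the low-count filter through the tomato+ libraries alone, so its sign was fixed by the filter. The glucose transporter gene Slc2a1 averaged 26.5 ± 11.0 CPM in tomato+ VEC and 100 ± 20.2 CPM in tomato- VEC, without overlap and without passing (edgeR adjusted p = 0.122). None of 28 tested ABC transporters passed by edgeR, with a family median of -0.28. Of these, 7 had an unadjusted p under 0.05, DESeq2 called 3, and limma voom and limma-trend called 0.

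Genes of energy metabolism gave no call by edgeR. Of 19 glycolysis genes, 15 were tested, 14 had a negative log2 fold change, and the median was -0.50. Of the 15, 7 were lower without overlap, against 9.85% of all tested genes. Pkm, pyruvate kinase, came nearest, at 148 ± 17.0 CPM in tomato+ VEC and 362 ± 97.1 CPM in tomato- VEC (edgeR adjusted p = 0.0721). Ldha, lactate dehydrogenase, was at 304 ± 73.8 CPM in tomato+ VEC and 309 ± 34.1 CPM in tomato- VEC. All 21 genes of the tricarboxylic acid cycle were tested, with a median of -0.03 and no gene free of overlap. For fatty acid oxidation, all 20 were tested with a median of -0.24, and 2 were lower without overlap, near the 9.85% of all tested genes. Of 83 subunits of oxidative phosphorylation, 76 were tested with a median of 0.06, and 14 were higher without overlap, against 9.26% of tested genes. Cholesterol synthesis (16 tested of 21, median 0.33) and serine, one-carbon and glutathione metabolism (15 tested of 20, median 0.39) had no call either. By unadjusted p under 0.05 there were 3 glycolysis genes, 0 of the tricarboxylic acid cycle, 1 of fatty acid oxidation, 1 of oxidative phosphorylation, 1 of cholesterol synthesis and 3 of serine, one-carbon and glutathione metabolism. DESeq2 and limma-trend each called 1 glycolysis gene and 1 gene of serine, one-carbon and glutathione metabolism and none of the other 4 lists, and limma voom called none in any.

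**Figure D4:**
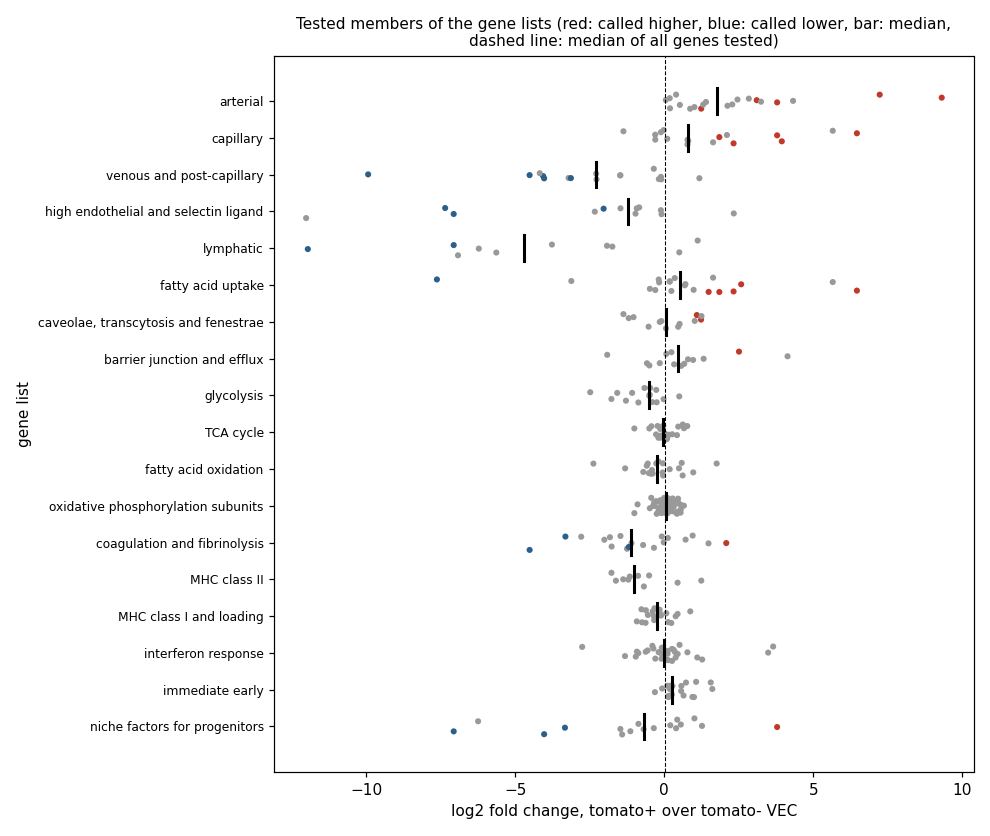
Each dot is a tested member of a gene list, at its log2 fold change of tomato+ over tomato- VEC, with members called higher in red and called lower in blue. The black bar is the list's median and the dashed line the median of all tested genes, 0.03. The arterial median is 1.76 and the venous -2.28, while the medians of the tricarboxylic acid cycle and of oxidative phosphorylation are -0.03 and 0.06. The lists were chosen with earlier results of these data known.

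Among surface proteins, Ly6c1, Ly6c2 and Ly6a rose in tomato+ VEC. Ly6c1 had 6499, 6297 and 5617 CPM in tomato+ VEC, against 997, 1193 and 860 CPM in tomato- VEC (log2 fold change 2.59, SE 0.18, edgeR adjusted p = 0.00108). Ly6c2 had 1931, 1969 and 1908 CPM in tomato+ VEC, against 272, 405 and 244 CPM in tomato- VEC (log2 fold change 2.66, SE 0.23, edgeR adjusted p = 0.00397). Both encode Ly6C, a glycolipid-anchored protein found on capillary endothelium and monocytes, and reads of such close copies may have been split between them. Ly6a, which encodes Sca-1, averaged 5044 ± 118 CPM in tomato+ VEC and 1866 ± 347 CPM in tomato- VEC (log2 fold change 1.43, SE 0.18, edgeR adjusted p = 0.0103). In the opposite direction, the tetraspanin gene Cd82 had 38.2, 45.0 and 45.7 CPM in tomato+ VEC, against 738, 629 and 477 CPM in tomato- VEC (log2 fold change -3.84, SE 0.26, edgeR adjusted p = 0.00108). Tspan13, another tetraspanin, averaged 657 ± 211 CPM in tomato+ VEC and 171 ± 21.6 CPM in tomato- VEC (edgeR adjusted p = 0.0216).

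Of 87 CD antigen symbols, 31 were tested, Cd36 rose and Cd82 fell, with a median log2 fold change of 0.07. The hyaluronan receptor gene Cd44 had 12.9, 7.46 and 40.1 CPM in tomato+ VEC, against 0.203, 0 and 0.956 CPM in tomato- VEC, and did not pass (edgeR adjusted p = 0.201). Plxnb2, a semaphorin receptor, averaged 21.1 ± 8.43 CPM in tomato+ VEC and 126 ± 27.8 CPM in tomato- VEC (log2 fold change -2.57, SE 0.45, edgeR adjusted p = 0.0429), so that 28 tested guidance genes held 2 that rose, Nrp1 and Efnb2, and 1 that fell. Integrins had 14 tested members and no call by edgeR, with a median of -0.63. Of these, 3 had an unadjusted p under 0.05, DESeq2 called 1, and limma voom and limma-trend called 0. Among scavenger receptors (8 tested of 17), Cd36 rose and Lyve1 fell, and Stab1 averaged 70.1 ± 30.5 CPM in tomato+ VEC and 249 ± 12.4 CPM in tomato- VEC without passing (edgeR adjusted p = 0.0583). Slamf8, a receptor known from macrophages, had 5 counts over the tomato+ libraries and 29.2, 74.1 and 20.2 CPM in tomato- VEC (edgeR adjusted p = 0.0172). Fgl2, a membrane and secreted fibrinogen-like protein, had 0, 0.122 and 0 CPM in tomato+ VEC and 46.3, 83.4 and 52.8 CPM in tomato- VEC, a ratio of 1756 from a single tomato+ count (95% counting interval 315 to 69393, edgeR adjusted p = 0.00687). Fgl2 is 1 of the 18 myeloid markers, whose sums were 164, 139 and 78.8 CPM in the tomato- libraries, so it carried a large part of them. Without Fgl2 the myeloid sums of the groups overlapped. Coro1a and Alox5ap of the same list had no count in tomato+ VEC, at 14.7 ± 7.10 CPM and 10.7 ± 6.59 CPM in tomato- VEC. Slamf8, Fgl2, Coro1a and Alox5ap passed the low-count filter through the tomato- libraries alone, so their sign was fixed by the filter. The part of myeloid RNA in the Fgl2 and Slamf8 differences was not tested.

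Ly6c1, Ly6c2 and Cd82 passed in all 6 fits that left out a library, while Ly6a and Fgl2 were each lost without tomato- replicate 2 (edgeR adjusted p 0.0146 to 0.0709 and 0.0298 to 0.0709 over the 6 fits). Slamf8 passed only without tomato- replicate 3 (0.0353 to 0.139), Tspan13 only without tomato+ replicate 3 (0.0216 to 0.102), and Plxnb2 in none of them (0.0535 to 0.194). Ly6c1, Ly6c2 and Tspan13 did not pass with all 12 libraries in the fit, and with limma voom Slamf8 and Plxnb2 did not, nor Plxnb2 with limma-trend.

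Among secreted proteins, the chemokines split. Of 37 chemokine genes, 14 were tested, Cxcl12 and Cxcl1 rose, and Ccl21a, Ccl21b and Ccl21c fell. Cxcl1, which attracts neutrophils, had 415, 517 and 586 CPM in tomato+ VEC, against 78.0, 116 and 59.7 CPM in tomato- VEC (log2 fold change 2.58, SE 0.31, edgeR adjusted p = 0.00966). Il6, the cytokine interleukin 6, had 987, 844 and 802 CPM in tomato+ VEC, against 133, 192 and 338 CPM in tomato- VEC (log2 fold change 1.99, SE 0.34, edgeR adjusted p = 0.0395). Neither gene overlapped between the groups, and Cxcl1 and Il6 were the 2 genes that rose among 24 tested NF-kB and inflammatory genes, where Selp and Lrg1 fell and the median was -0.51. Tnfsf9, the membrane ligand of 4-1BB, rested mostly on tomato+ replicate 1, with 112, 18.0 and 7.67 CPM in tomato+ VEC and 0.101, 0.0965 and 0 CPM in tomato- VEC. Its ratio was 719 on 2 tomato- counts (95% counting interval 199 to 5943, edgeR adjusted p = 0.0443). Tnfsf9 passed the low-count filter through the tomato+ libraries alone, so its sign was fixed by the filter.

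Of 20 factors known to act on thymic or blood progenitors, 17 were tested, Cxcl12 rose, and Ccl21a, Selp and Bmp4 fell. Bmp4, a morphogen of the thymic stroma, had 11.1, 4.65 and 11.7 CPM in tomato+ VEC, against 103, 110 and 65.6 CPM in tomato- VEC (log2 fold change -3.33, SE 0.56, edgeR adjusted p = 0.0373). Il7, the survival cytokine of thymocytes, had 0.0961, 0 and 0.299 CPM in tomato+ VEC, against 20.7, 3.47 and 9.35 CPM in tomato- VEC, and did not pass (edgeR adjusted p = 0.145). Ccl25 overlapped, at 0.288, 17.0 and 0.199 CPM in tomato+ VEC and 0.203, 9.84 and 2.87 CPM in tomato- VEC. Ccl19 was near the floor in every library, with 9 counts over each group. Spns2, the exporter of sphingosine 1-phosphate that is known to be needed in endothelium for lymphocyte egress, averaged 63.5 ± 6.91 CPM in tomato+ VEC and 226 ± 46.2 CPM in tomato- VEC (log2 fold change -1.83, SE 0.28, edgeR adjusted p = 0.0273). It was the single call among 8 tested genes of that lipid's handling.

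Several secreted regulators of vessels and matrix fell. Angpt2, the antagonist of angiopoietin 1 at the Tie2 receptor, had 22.5, 34.0 and 35.8 CPM in tomato+ VEC, against 600, 316 and 253 CPM in tomato- VEC (log2 fold change -3.66, SE 0.41, edgeR adjusted p = 0.00684). Ltbp2, a matrix protein related to the binders of latent TGF-beta, had 0, 0.122 and 1.69 CPM in tomato+ VEC, against 634, 513 and 279 CPM in tomato- VEC (log2 fold change -9.55, SE 1.06, edgeR adjusted p = 0.00684). Ctsl, the secreted and lysosomal protease cathepsin L, had 893, 876 and 1076 CPM in tomato+ VEC, against 5713, 5584 and 4484 CPM in tomato- VEC (log2 fold change -2.47, SE 0.18, edgeR adjusted p = 0.00119). Each of these was below every tomato- library in every tomato+ library. Bgn, the matrix proteoglycan biglycan, averaged 168 ± 119 CPM in tomato+ VEC and 1300 ± 212 CPM in tomato- VEC (edgeR adjusted p = 0.0303). Pericytes also make biglycan, and the summed pericyte markers reached 467 CPM in tomato- VEC and 235 CPM in tomato+ VEC, with overlapping ranges. Their part in the Bgn values was not tested. Ctgf, a matricellular growth factor, averaged 4.07 ± 2.11 CPM in tomato+ VEC and 65.4 ± 20.7 CPM in tomato- VEC (edgeR adjusted p = 0.0457). In the other direction Nepn, the small leucine-rich proteoglycan nephrocan, had 137, 60.6 and 55.4 CPM in tomato+ VEC, against 0.101, 0.386 and 0.319 CPM in tomato- VEC (log2 fold change 8.22, SE 0.84, edgeR adjusted p = 0.00684). Fn1, fibronectin, had 175, 206 and 237 CPM in tomato+ VEC, against 7.50, 0.483 and 12.1 CPM in tomato- VEC, and just missed the threshold (edgeR adjusted p = 0.0583).

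Clotting genes divided as well. Of 25 listed, 19 were tested, Thbd rose, Vwf, F8 and Entpd1 fell, and the median log2 fold change was -1.10. Thbd, the thrombin-binding anticoagulant thrombomodulin, had 1148, 1158 and 641 CPM in tomato+ VEC, against 210, 225 and 263 CPM in tomato- VEC (log2 fold change 2.08, SE 0.27, edgeR adjusted p = 0.0140). F8, coagulation factor VIII, which circulates bound to von Willebrand factor, had 62.6, 31.8 and 32.7 CPM in tomato+ VEC, against 330, 444 and 494 CPM in tomato- VEC (log2 fold change -3.32, SE 0.36, edgeR adjusted p = 0.00684). Entpd1, the ecto-enzyme CD39 that degrades extracellular ATP, averaged 275 ± 26.8 CPM in tomato+ VEC and 630 ± 69.7 CPM in tomato- VEC (log2 fold change -1.19, SE 0.20, edgeR adjusted p = 0.0341). Ptgs1, the cyclooxygenase behind prostacyclin, averaged 16.4 ± 8.33 CPM in tomato+ VEC and 168 ± 32.3 CPM in tomato- VEC (log2 fold change -3.36, SE 0.46, edgeR adjusted p = 0.0172). Serpins, the protease inhibitors, had 25 tested members of 62 and no call by edgeR. Their median was -1.10, and 11 of the 25 were lower without overlap, against 9.85% of all tested genes. Of these, 5 had an unadjusted p under 0.05, DESeq2 called 4, and limma voom and limma-trend called 0.

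Angpt2, Ltbp2, Ctsl, Nepn and F8 passed in all 6 fits that left out a library. The sign of Nepn was fixed by the low-count filter, which it passed through the tomato+ libraries alone. Cxcl1 was lost without tomato- replicate 1 (edgeR adjusted p 0.0287 to 0.0579 over the 6 fits), Ptgs1 without tomato+ replicate 1 or tomato- replicate 1 or 2 (0.0346 to 0.0979), and Thbd without tomato+ replicate 1 or 2 or tomato- replicate 1 or 2 (0.00880 to 0.0979). Il6 passed only without tomato- replicate 3 (0.0147 to 0.198), Tnfsf9 and Bgn only without tomato+ replicate 3 (0.0434 to 0.196 and 0.00305 to 0.110), and Spns2 only without tomato- replicate 3 (0.0495 to 0.139). Bmp4, Ctgf and Entpd1 passed in none of these fits (0.0778 to 0.191, 0.0847 to 0.238 and 0.0638 to 0.148). With limma voom, Nepn, Ltbp2, Tnfsf9, Bmp4 and Ctgf did not pass, and with all 12 libraries Il6, Entpd1, Ptgs1, Spns2, Bgn and Ctgf did not.

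Of 47 endothelial transcription factor genes, 38 were tested and Hey1 was the single call, with a median log2 fold change of 0.50. Klf2, the factor induced by laminar flow, had 694, 626 and 302 CPM in tomato+ VEC, against 155, 252 and 166 CPM in tomato- VEC, and did not pass (edgeR adjusted p = 0.113). Id1, a target of BMP signalling, averaged 578 ± 263 CPM in tomato+ VEC and 119 ± 57.4 CPM in tomato- VEC (edgeR adjusted p = 0.0817). Neither overlapped between the groups, and in both tomato+ replicate 3 was lowest of its group. Ets1, a factor of endothelium in general, averaged 624 ± 198 CPM in tomato+ VEC and 632 ± 201 CPM in tomato- VEC. Among 22 tested genes of BMP and TGF-beta signalling, Bmp4 and Ltbp2 fell, and among 19 of VEGF and angiopoietin signalling, Nrp1 rose and Angpt2 fell.

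The remaining genes with the largest changes were low or absent in a group. Among those higher, Rasgrf2, an exchange factor for Ras, had 86.9, 99.8 and 124 CPM in tomato+ VEC, against 1.01, 4.63 and 2.76 CPM in tomato- VEC (log2 fold change 5.20, SE 0.68, edgeR adjusted p = 0.0140). Cecr2, a chromatin remodelling factor, averaged 71.0 ± 11.1 CPM in tomato+ VEC and 0.404 ± 0.443 CPM in tomato- VEC (edgeR adjusted p = 0.0140). Scgb3a1, a small secreted protein, averaged 57.9 ± 23.7 CPM in tomato+ VEC and 2.78 ± 0.668 CPM in tomato- VEC (edgeR adjusted p = 0.0316). Dusp26, a dual-specificity phosphatase, had 43.9, 38.6 and 13.9 CPM in tomato+ VEC and 2 counts over the tomato- libraries. Rnf152 and Vwa3a averaged 23.2 ± 5.67 and 28.4 ± 6.13 CPM in tomato+ VEC, with 1 and 3 counts over the tomato- libraries. Cecr2, Dusp26, Rnf152 and Vwa3a passed the low-count filter through the tomato+ libraries alone, so their sign was fixed by the filter. The actin-bundling gene Pls3, with a smaller difference, averaged 1301 ± 173 CPM in tomato+ VEC and 459 ± 24.4 CPM in tomato- VEC (log2 fold change 1.50, SE 0.18, edgeR adjusted p = 0.00967). Rasgrf2 was lost without tomato+ replicate 3 or tomato- replicate 3 (edgeR adjusted p 0.0342 to 0.0671 over the 6 fits that left out a library), Cecr2 without replicate 2 of either group (0.0279 to 0.0769) and Pls3 without tomato- replicate 1 or 2 (0.0349 to 0.0677). Scgb3a1 and Dusp26 passed only without tomato+ replicate 3 (0.0436 to 0.139 and 0.0430 to 0.128), and Rnf152 and Vwa3a in none of these fits (0.0847 to 0.166 and 0.0782 to 0.140). With limma voom, Pls3 passed and the other 6 did not, with all 12 libraries Rasgrf2, Dusp26 and Rnf152 did not, and with limma-trend Rnf152 did not.

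Among those lower, Dclk1, a microtubule-associated kinase, had 0.0961, 0.244 and 0.299 CPM in tomato+ VEC, against 173, 140 and 29.2 CPM in tomato- VEC (log2 fold change -8.99, SE 0.97, edgeR adjusted p = 0.00684), and passed in all 6 fits that left out a library. It passed the low-count filter through the tomato- libraries alone, so its sign was fixed by the filter. Klrb1f, Ccdc51 and Rnase10 had no count in tomato+ VEC and averaged 49.4 ± 42.5, 24.3 ± 11.9 and 21.8 ± 3.55 CPM in tomato- VEC. Klrb1f was therefore at least 476-fold lower, Ccdc51 at least 234-fold and Rnase10 at least 208-fold, each against a floor of 3 counts over the tomato+ libraries. Fgf23, a hormone of phosphate balance that is mainly known from bone, had 0, 0.122 and 0 CPM in tomato+ VEC, against 18.5, 37.7 and 67.0 CPM in tomato- VEC (edgeR adjusted p = 0.0226). Extl1, Tox, Tmem184c, Nxph1 and Pole, with 1 to 5 counts over the tomato+ libraries, averaged 31.8 ± 16.4, 40.7 ± 41.3, 19.2 ± 4.95, 37.6 ± 21.0 and 41.3 ± 7.62 CPM in tomato- VEC. Like Dclk1, all of these lower genes from Klrb1f to Pole passed the filter through the tomato- libraries alone, which fixed their sign. Apart from Dclk1, these calls were lost when most single libraries were left out. Klrb1f and Tox passed only without tomato- replicate 3 and Pole only without tomato+ replicate 1, while Ccdc51, Rnase10, Fgf23, Extl1, Tmem184c and Nxph1 passed in none of the 6 fits. Over those fits the edgeR adjusted p was 0.0475 to 0.189 for Klrb1f, 0.0456 to 0.213 for Tox, 0.0422 to 0.158 for Pole and 0.0562 to 0.108 for Fgf23, and up to 0.213 for the others. With limma voom, Rnase10 was the single one of these lower genes that passed. With all 12 libraries Klrb1f, Rnase10 and Nxph1 did not pass, with robust dispersions Ccdc51, Rnase10 and Tmem184c did not, and with limma-trend Tox did not.

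Other lists held no call by edgeR. All 32 interferon response genes were tested with a median log2 fold change of 0.0032. Of these, 10 did not overlap, 6 higher and 4 lower, against 9.26% higher and 9.85% lower of all tested genes. All 20 genes of MHC class I and peptide loading were tested with a median of -0.25, and 7 were lower without overlap, against the same 9.85%. MHC class II genes (10 tested of 11) had a median of -1.02. The invariant chain gene Cd74 had 280, 194 and 394 CPM in tomato+ VEC, against 1472, 851 and 643 CPM in tomato- VEC (edgeR adjusted p = 0.0811). Antigen-presenting myeloid cells also express it, and the part of the summed myeloid markers given above in this difference was not tested. Fgl2 carried a large part of those sums in tomato- VEC, and without Fgl2 the sums of the groups overlapped. Among the 20 tested immediate early genes, 18 had a positive log2 fold change, with a median of 0.26. Of the 20, 6 were higher without overlap, against 9.26% of all tested genes. Heat shock genes (16 tested, median 0.07) and cell cycle genes (15 tested of 24, median -0.04) also held no call. At an unadjusted p under 0.05 there were 6 interferon, 5 MHC class I, 1 MHC class II, 6 immediate early, 6 heat shock and 1 cell cycle gene. In the same order DESeq2 called 3, 0, 1, 3, 4 and 1, limma-trend 1, 0, 1, 0, 1 and 0, and limma voom 1 interferon gene and none of the others. Of the 10 genes of highest mean RPKM in tomato- VEC, B2m, Tmsb4x, Fabp4, Actb, Ifitm3 and Ubb were also among the 10 of highest mean RPKM in tomato+ VEC. Ubd, an interferon-inducible ubiquitin-like modifier, stood in the tomato- set alone, at 984 RPKM in tomato+ VEC and 3324 RPKM in tomato- VEC, and did not pass (edgeR adjusted p = 0.0583).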

How the data were processed

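RNA of 12 libraries of sorted thymic stromal cells was sequenced, and 3 tomato+ and 3 tomato- VEC libraries are compared here. TopHat2 2.0.10 and build mm9 are named, per the submitters' processing notes. No source used here gives the read counter or the annotation. The authors deposited raw read counts per gene symbol, per the file headers, and RPKM values beside them. The share of a library's counts divided by the RPKM gave the same gene length in each library (83849 of 83849 values above 0, within a relative 1e-06), so the RPKM derive from these counts and their totals. With no strand or multiple-mapping rule stated, near-identical and antisense genes cannot be told apart.

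Counts were tested with edgeR 4.0.16 (quasi-likelihood, TMM scaling, filterByExpr with a minimum count of 10) in R 4.3.3, with Benjamini-Hochberg adjustment over 11039 genes and a threshold of 0.05. The fit used the 6 libraries and group alone. Alternatives were DESeq2 1.42.0, limma 3.58.1 (voom, and trend on log2(RPKM + 1)), other scaling and filters, all 12 libraries, robust dispersions, a replicate block and each library left out. The scripts were tested on simulated counts. Counting intervals (95%) and floors (3 counts) cover counting error only.

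Genes were named if used in the sort, called within a gene list, needed to describe a list's range, among the 15 largest called changes per direction with at least 5 CPM on average and libraries that do not overlap, among the 10 smallest adjusted p per direction, or among the 10 highest RPKM per group. Not every gene so eligible is described. The members and lists were chosen with earlier results of these data known.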

Additional observations from a re-analysis of the deposited data

How the results depend on the processing

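Relative to 112 calls by edgeR (53 higher, 59 lower), DESeq2 called 571 (270 and 301), no low-count filter gave 299 (144 and 155), all 12 libraries in the fit gave 244 (84 and 160) and limma-trend on log2(RPKM + 1) gave 212 (82 and 130). DESeq2 and the unfiltered fit each called all 112, limma-trend 103 of them and the 12-library fit 71. Limma voom called 75, 41 higher and 34 lower, 65 of them shared. Relative log expression scaling, a filter of at least 5 CPM in 3 libraries and robust dispersions gave 112, 132 and 106. Leaving out each library gave 30 to 84 calls, 14 to 36 higher and 16 to 48 lower. Kitl did not pass by edgeR, but passed with DESeq2 (log2 fold change 1.25, adjusted p = 0.0017) and with no low-count filter in edgeR (log2 fold change 1.245, adjusted p = 0.0105). Other uncalled genes named here also passed in some alternatives. Aqp7, Fn1 and Ubd did with DESeq2, limma-trend, no low-count filter, the 5 CPM filter and all 12 libraries. Aqp7 and Ubd also passed with limma voom, and Ubd with the replicate block. None of the 3 passed with relative log expression scaling or robust dispersions. Aqp7 and Fn1 each passed in 1 of the 6 fits that left out a library, and Ubd in 0. On simulated counts of this design, a larger share of DESeq2's calls than of edgeR's fell on genes simulated without a change. Those counts were drawn with the dispersions of the edgeR fit, so they cannot rank the tools on the real libraries. Genes called by DESeq2 alone are left as uncertain. The cause of these shifts was not tested. No called gene named here changed direction under any alternative run, and Actb, which was near 0 and not called, changed sign. With the replicate number as a block, 72 genes were called, 31 higher and 41 lower, 60 of them shared. Lyve1, Gcnt1, Gja5, Nrp1, Lpl, Thbd, Il6, Tnfsf9, Spns2, Bmp4, Ctgf, Entpd1, Plxnb2 and Slamf8 did not pass with this block. Neither did Rnf152, Dusp26, Vwa3a, Scgb3a1, Klrb1f, Ccdc51, Rnase10, Fgf23, Extl1, Tox, Tmem184c, Nxph1 or Pole. Same-numbered libraries had deviations that correlated at -0.0026, 0.0427 and 0.0882. Tomato+ replicates 2 and 3 each correlated best with the tomato- library of their number, and tomato+ replicate 1 with tomato- replicate 2 (0.0149). These correlations were small and cannot settle whether the numbers are pairs. The labels used here do not state pairs, and the main fit took none. Depth limits genes at 0 to 3 counts in a group, where ratios have wide counting intervals. The fit had 4 residual degrees of freedom, and 1997 tested genes had libraries that did not overlap but did not pass. With 3 libraries against 3 the smallest two-sided exact p is 0.1, so part of such genes would separate without any true difference. How many of the 1997 differ was not tested.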
